A study of Eutrema salsugineum with 2 samples.

Results

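The loci described here carry IDs that start with XLOC_ in the deposited table of Eutrema salsugineum reads. They are transcribed stretches that the authors assembled from their own reads and that overlap no gene of the JGI reference annotation. The table holds 157 such rows among 17888 genes, and the other 17731 are annotated genes with Thhalv IDs. Of the 157 loci 2 are not analysed here, and all the others are described. Members were chosen by their ID alone, and no read number was used. The reads that assembled a locus were however also the reads counted on it, and every locus had at least 10 reads in at least 1 library.

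E. salsugineum is a salt-tolerant crucifer related to Arabidopsis thaliana. The study compared an accession from the Yukon (YK) with an accession from Shandong (SH), and each was sequenced as 1 library of pyrosequencing reads. Seeds of both accessions were stratified in the cold and dark for 10 days before sowing. Both libraries came from whole rosettes of well-watered plants at an age of 4 weeks, grown under a 12 h photoperiod with 22 °C by day and 20 °C by night and taken midway through the dark phase. Plants were pooled, 5 to a pool, and the labels do not settle whether 1 pool or 4 pools went into a library. With 1 library of each accession there is no replicate, so each test compares the 2 libraries and covers counting error only.

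A transcript assembly guided by a reference annotation keeps known gene models and adds a new locus wherever reads pile up outside them. Such a locus can be a protein-coding gene that gene prediction missed, a noncoding RNA, a transposable element, or a detached piece of the untranslated end of a known gene. Read numbers and positions alone do not tell these kinds apart, and which kind each locus is was not tested.

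The only sequences that the sources used here give for these loci are primers for quantitative PCR. The authors designed them for 9 loci picked as candidates from these same reads. These loci therefore number among those with the strongest differences in reads. The primers are shown because each pair identifies a stretch that was to be amplified in both accessions. The outcome of that PCR is not given here for the loci. The primers are 19 to 30 bases long with a GC content of 30.0 to 57.9%. Those of 4 loci are printed 5′ to 3′, with the 5 bases at the 3′ end, from which the polymerase extends, in capitals.
XLOC_005768 forward: tgtgtgttaatcctctgcagatCTATC
XLOC_005768 reverse: gccatggaaggcatCTTCA
XLOC_017573 forward: accggatctgaaggcATCAC
XLOC_017573 reverse: cgcttatatcggttccgACTTG
XLOC_003052 forward: cacaaaaaaacgacaacagaAACCT
XLOC_003052 reverse: ggcttgctggtttagattcTTAGG
XLOC_024729 forward: gaaatcaaatagagaaaacaagtacGAAGT
XLOC_024729 reverse: actgggactcgtctttatcaCATTC

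The libraries held 431705 reads on genes in YK and 482275 in SH. The XLOC loci took 4327 of the YK reads, or 1.00% (95% Clopper-Pearson interval 0.973 to 1.03%), and 6772 of the SH reads, or 1.40% (1.37 to 1.44%). The log2 ratio of the summed reads was -0.65 for YK over SH (-0.70 to -0.59), with size factors of 1 and 1. This ratio is not scaled to the library totals, so it shows a wider gap than the shares do. The 10 loci with the most reads held 35.1% of the 11099 reads on these loci. A count of 0 allows up to 3 reads, which is 6.95 RPM (reads scaled to equal library totals) in YK and 6.22 RPM in SH, and folds against a library without reads are given against this floor. Marker genes of rosette leaf, flower and pollen, seed and root were looked for among A. thaliana best hits, but none was found in the annotated part of the table used here, so the labelled tissue could not be checked.

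Reads per locus were low. The libraries together gave a median of 33 reads per locus (10 to 1008), with a median of 13 in YK and 21 in SH. Of the loci, 38 had under 20 reads, 62 had 20 to 49, 28 had 50 to 99, and 27 had at least 100. YK had more reads at 50 loci, SH at 104, and 1 locus had equal numbers.

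Each gene with at least 10 reads was compared between the libraries by an exact, two-sided binomial test against equal shares, adjusted by the Benjamini-Hochberg method over the 10036 genes of the whole table with that many reads. A call required that the adjusted p was under 0.05 and that the log2 ratio of YK over SH, with 0.5 reads added to each count, was at least 1 in size. By this rule 68 of the XLOC loci, or 43.9% (35.9 to 52.1%), were called, against 6.62% of all genes tested, and 87 were not. Higher in YK were 18 loci (11.6%, against 2.74% of all genes), and higher in SH were 50 (32.3%, against 3.88%). The median log2 ratio of the loci was -0.71, and it was 0.00 over all genes tested. With every count under 3 raised to that floor the medians were -0.74 and 0.00. Without any test, 91 loci (58.7%) stood at least 2-fold apart between the libraries, against 21.4% of all genes tested, and 99 loci had an unadjusted p under 0.05. Of the 68 calls, 45 held when edgeR's exact test was given an assumed coefficient of variation of 0.2 between libraries, and 12 held at 0.4, so the number of calls depends on the spread assumed between libraries. In the plot of YK against SH reads the called loci lie along both axes as well as off the diagonal.

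**Figure D1:**
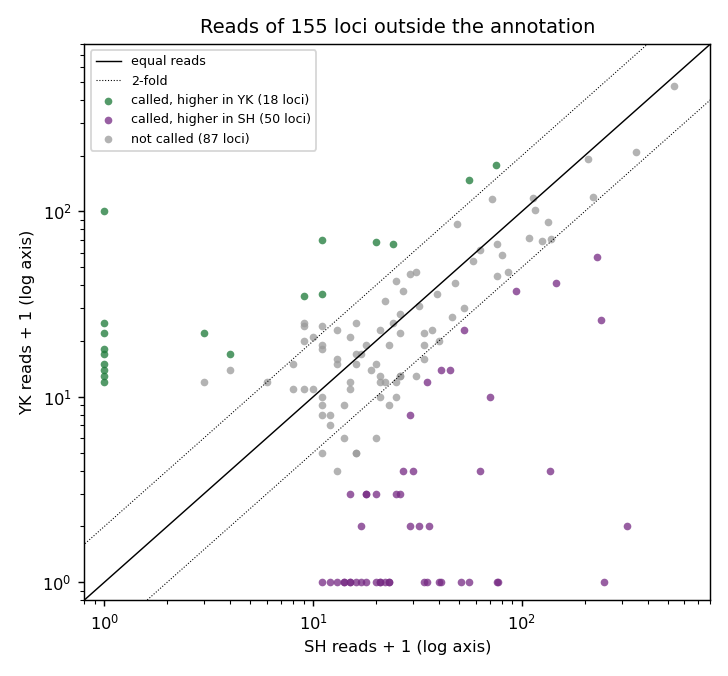
Reads of each XLOC locus in the YK library (vertical log axis, 1 read added) and in the SH library (horizontal log axis, 1 read added); the solid line marks equal reads and the dotted lines 2-fold differences. The 18 loci called higher in YK lie above the lines, the 50 called higher in SH lie below them, and the 87 loci that were not called lie in between and at low reads.

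The floor of 10 reads in at least 1 library bears on these shares, since a locus with few reads could enter the table only by having most of them in the same library. Annotated genes had no such floor. Among all genes with at least 10 reads in at least 1 library, 8.42% were called. Of the XLOC loci with 10 to 19 reads, 57.9% were called, against 8.42% of annotated genes with 10 to 19 reads and at least 10 of them in a library. From 20 reads on, any split leaves at least 10 reads in a library, so the floor cannot bind. At 20 to 49 reads 38.7% of loci were called, against 5.06% of annotated genes. The shares were 46.4% against 9.75% at 50 to 99 reads, and 33.3% against 10.5% at 100 to 1008 reads. The share called was thus above that of annotated genes in each class of reads. How far the way in which loci were assembled and kept adds to this was not tested.

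**Figure D2:**
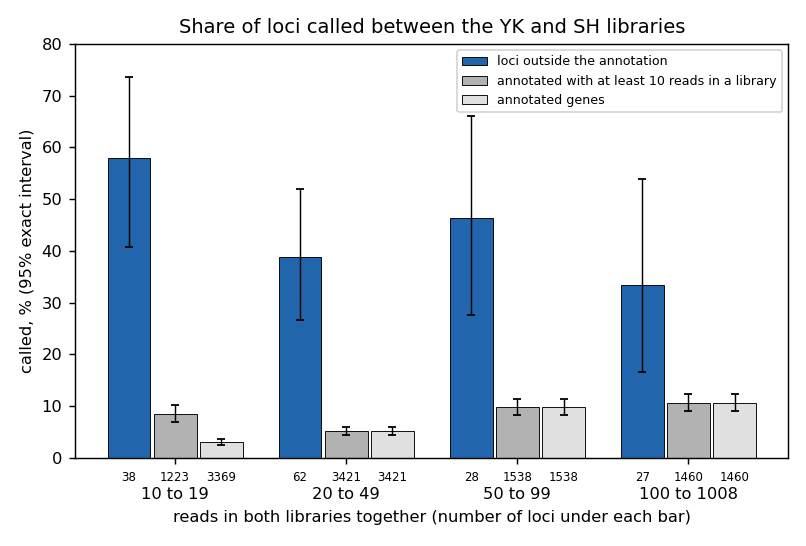
Share of loci called between the YK and SH libraries, in percent with 95% exact intervals, by reads in both libraries together; numbers under the bars count the loci or genes. Blue bars are XLOC loci, and grey bars are annotated genes with at least 10 reads in a library and all annotated genes with at least 10 reads. The blue bars stand at 57.9, 38.7, 46.4 and 33.3%, and no grey bar is above 10.5%.

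Reads in a single library were found for 34 loci (21.9%), against 1.44% of all genes of the table with at least 10 reads in a library. At these loci YK alone had reads 9 times and SH alone 25 times. The 1.44% is not matched for reads. At 10 to 19 reads 17 of 38 loci had reads in a single library, against 58 of 1223 annotated genes with at least 10 reads in a library. At 20 to 49 reads these were 11 of 62 and 15 of 3421, and at 50 to 99 reads 5 of 28 and 4 of 1538. At 100 to 1008 reads they were 1 of 27 and 2 of 1460. All 34 were called, as the floor of 10 reads makes a split of this kind pass the test. The other 121 loci had reads in both libraries, and 34 of them were called.

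The 9 loci with reads in YK alone had a median of 16 reads (11 to 99) and lengths of 696 to 2390 bp. XLOC_005768 stood out with 99 reads in YK and 0 in SH, which is 33-fold higher in YK against the floor (exact binomial test, adjusted p = 7.2e-28). It is 968 bp long, at 4071976 to 4072943 of scaffold 12, only 144 bp from Thhalv10002126m.g, which had 142 reads in YK and 152 in SH. Locus and gene are neighbours, yet only the gene had SH reads, and their ratios differed by Fisher's exact test (adjusted p = 5.85e-23). It is the locus whose primers open the list of sequences.

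XLOC_015177 (1200 bp, scaffold 20) had 24 reads in YK and 0 in SH, or 8-fold higher in YK against the floor (exact binomial test, adjusted p = 4.67e-06). It lies 1499 bp from Thhalv10000832m.g, whose best A. thaliana hit is MPK17, a mitogen-activated protein kinase, and which had 57 reads in YK and 45 in SH. The neighbour was thus close to even where the locus had reads in YK alone. XLOC_016514 (2390 bp, scaffold 3) had 21 YK reads and 0 SH reads, 7-fold higher in YK against the floor (exact binomial test, adjusted p = 3.17e-05). XLOC_002415 (1845 bp, scaffold 1) had 17 YK reads and 0 SH reads and is the locus nearest to any annotated gene, 98 bp from Thhalv10027607m.g, itself covered by 1 read in YK and 0 in SH. Such a thin neighbour cannot be compared with the locus.

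XLOC_008048 (1058 bp, scaffold 13) had 16 YK reads and 0 SH reads. Its nearest gene with at least 10 reads, Thhalv10021778m.g at 3714 bp, was itself called higher in YK, with 104 reads in YK and 35 in SH. Locus and neighbour thus leaned the same way. XLOC_020724 (765 bp, scaffold 5) had 14 YK reads and 0 SH reads, and XLOC_005354 (872 bp, scaffold 11) had 13 and 0. XLOC_020726 (696 bp, scaffold 5) had 12 YK reads and 0 SH reads and is 1 of 3 loci with a best A. thaliana hit in the part of the annotation used here, AT5G26270. XLOC_010741 (703 bp, scaffold 18) had 11 YK reads and 0 SH reads and lies 105372 bp from the nearest annotated gene with reads. These last loci are 3.67- to 4.67-fold higher in YK against the floor, and their calls hang on 11 to 14 reads.

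The 25 loci with reads in SH alone had a median of 20 reads (10 to 246) and lengths of 316 to 3265 bp. XLOC_017573 led them with 0 reads in YK and 246 in SH, which is 82-fold lower in YK against the floor (exact binomial test, adjusted p = 1.61e-71). It spans 858 bp, at 3983368 to 3984225 of scaffold 4, and stands 30504 bp from Thhalv10002462m.g, a gene with 1 read in YK and 2 in SH. No gene with many reads was therefore near it.

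XLOC_020731 (897 bp, scaffold 5) had 0 YK reads and 76 SH reads, 25.3-fold lower in YK against the floor (exact binomial test, adjusted p = 4.35e-21). XLOC_015175 (869 bp, scaffold 20) had 0 YK reads and 75 SH reads, 25-fold lower in YK against the floor (exact binomial test, adjusted p = 8.43e-21). The nearest annotated genes of both had 1 to 3 reads in all. XLOC_003055 (892 bp, scaffold 1) had 0 YK reads and 55 SH reads, 18.3-fold lower in YK against the floor. Thhalv10026688m.g at 2089 bp had 33 reads in YK and 28 in SH. XLOC_017575 (1337 bp, scaffold 4) had 0 YK reads and 50 SH reads, 16.7-fold lower in YK against the floor. Its neighbour at 16293 bp, Thhalv10002648m.g, has the transcription factor MYB48 as best A. thaliana hit and was called in the other direction, with 48 reads in YK and 16 in SH. The authors designed primers for XLOC_017573 and for each of these 4 loci.

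XLOC_005642 (932 bp, scaffold 12) had 0 YK reads and 40 SH reads, 13.3-fold lower in YK against the floor (exact binomial test, adjusted p = 1.36e-10). Its best hit AT5G42080 is, in A. thaliana, a dynamin-like protein, a GTPase of membrane remodelling. The annotated gene 1212 bp away, Thhalv10002216m.g, has the 14-3-3 protein GRF7 as best hit and showed the same lean at few reads, 0 in YK and 4 in SH. XLOC_016856 (885 bp, scaffold 3) had 0 YK reads and 39 SH reads, 13-fold lower in YK against the floor. XLOC_003051 (1099 bp, scaffold 1) had 0 YK reads and 34 SH reads, 11.3-fold lower in YK against the floor. It is only 150 bp from Thhalv10025680m.g, which had 1138 reads in YK and 1457 in SH, so a strongly covered gene and a locus without YK reads lay side by side. XLOC_016224 (1086 bp, scaffold 3) had 0 YK reads and 33 SH reads and lies 206146 bp from the nearest annotated gene with reads.

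The remaining 16 loci with reads in SH alone had 10 to 22 reads each. XLOC_011432 (690 bp) and XLOC_016861 (2461 bp) had 0 YK reads and 22 SH reads each, and XLOC_023555 (452 bp) had 0 and 21. XLOC_008741 (913 bp) and XLOC_022732 (1136 bp) had 0 YK reads and 20 SH reads each, and XLOC_003053 (1074 bp) had 0 and 19. XLOC_024686 (1026 bp) had 0 YK reads and 17 SH reads, XLOC_008043 (1362 bp) had 0 and 16, and XLOC_025497 (1773 bp) had 0 and 15. The last of these is the third locus with a best hit in that part of the annotation, AT5G17125, which in A. thaliana is annotated as a transposable element gene. XLOC_003049 (848 bp) and XLOC_005769 (1022 bp) had 0 YK reads and 14 SH reads each, and XLOC_004724 (316 bp) and XLOC_005770 (837 bp) had 0 and 13 each. XLOC_016853 (334 bp) had 0 YK reads and 12 SH reads, XLOC_022729 (464 bp) had 0 and 11, and XLOC_002276 (3265 bp) had 0 and 10. XLOC_004724 is the shortest of all loci, and XLOC_002276 has the fewest reads per length, 3.06 per kb.

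**Figure D3:**
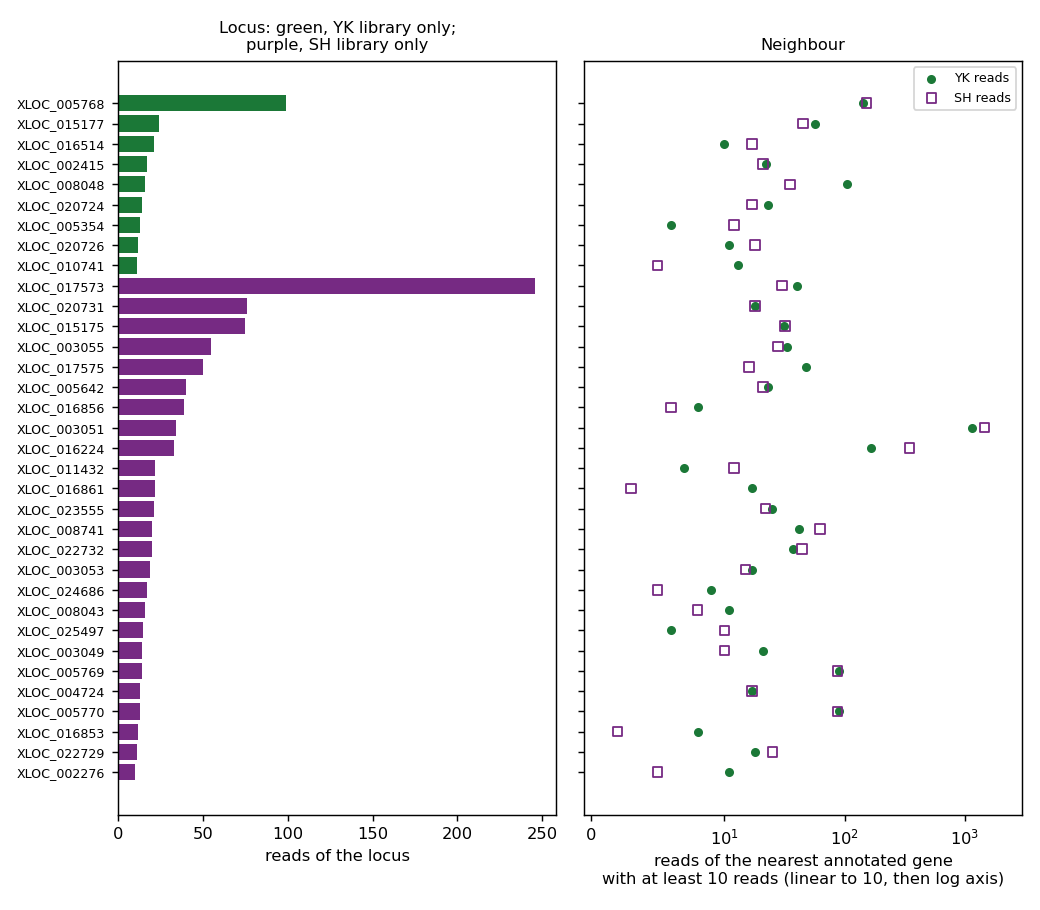
Left, reads of the 34 loci with reads in a single library (9 with YK reads only in green, 25 with SH reads only in purple; linear axis); right, YK reads (filled circles) and SH reads (open squares) of the nearest annotated gene with at least 10 reads, linear to 10 and logarithmic above. XLOC_005768 with 99 YK reads and XLOC_017573 with 246 SH reads have the longest bars, while the neighbours had reads in both libraries.

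Among the 121 loci with reads in both libraries, 9 were called higher in YK. XLOC_017266 (957 bp, scaffold 4) had 69 reads in YK and 10 in SH, for a log2 ratio of 2.73 (1.82 to 3.91; adjusted p = 3.92e-10, exact binomial test). XLOC_017577 (1042 bp, scaffold 4) had 178 reads in YK and 74 in SH, for a log2 ratio of 1.26 (0.87 to 1.68; adjusted p = 2.98e-09). XLOC_023847 (720 bp, scaffold 7) had 147 reads in YK and 55 in SH, for a log2 ratio of 1.41 (0.96 to 1.89; adjusted p = 4.53e-09). The intervals of these 3 lie wholly on the side of YK. XLOC_003056 (386 bp, scaffold 1), with 21 reads in YK and 2 in SH, reached a log2 ratio of 3.10 (1.36 to 6.53; adjusted p = 0.00138). XLOC_008046 (617 bp) had 67 YK reads and 19 SH reads, XLOC_000171 (1712 bp) had 66 and 23, and XLOC_010711 (960 bp) had 35 and 10. XLOC_007809 (656 bp) had 34 YK reads and 8 SH reads, and XLOC_008047 (959 bp) had 16 and 3. With the 9 loci seen in YK alone these make up the 18 calls higher in YK.

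The other 25 called loci with reads in both libraries were higher in SH. XLOC_003052 (1374 bp, 9941838 to 9943211 of scaffold 1) had 1 read in YK and 318 in SH, the lowest log2 ratio among loci with reads in both, -7.73 (-13.62 to -5.82; adjusted p = 8.59e-91, exact binomial test). XLOC_024729 (961 bp, scaffold 8) had 25 reads in YK and 237 in SH, for a log2 ratio of -3.22 (-3.90 to -2.65; adjusted p = 6.12e-42). XLOC_008740 (875 bp, scaffold 14) had 3 reads in YK and 135 in SH, for a log2 ratio of -5.27 (-7.79 to -3.91; adjusted p = 7.21e-34). For all 3 the authors designed primers, and their intervals stayed beyond a 4-fold difference. XLOC_009286 (3926 bp, scaffold 15) had 56 reads in YK and 228 in SH, for a log2 ratio of -2.02 (-2.47 to -1.60; adjusted p = 1.61e-23). XLOC_021725 (1018 bp, scaffold 6) had 40 reads in YK and 145 in SH, for a log2 ratio of -1.85 (-2.40 to -1.34; adjusted p = 3.52e-13).

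Of the 20 further calls of this kind, 6 had 1 read or 3 reads in YK against 26 to 62 in SH, and the wide intervals follow from the small YK counts. XLOC_023848 (748 bp) had 3 YK reads and 62 SH reads, XLOC_010425 (889 bp) had 1 and 35, and XLOC_020198 (1123 bp) had 1 and 31. XLOC_025345 (2829 bp) had 1 YK read and 28 SH reads, XLOC_026392 (765 bp) had 3 and 29, and XLOC_006456 (856 bp) had 3 and 26. A second set had 1 or 2 YK reads and at most 25 SH reads. XLOC_008044 (481 bp) had 2 YK reads and 25 SH reads, XLOC_026391 (1660 bp) had 2 and 24, and XLOC_019255 (490 bp) had 2 and 19. XLOC_022730 (445 bp) and XLOC_024671 (893 bp) had 2 YK reads and 17 SH reads each. XLOC_010428 (665 bp) had 1 YK read and 16 SH reads, and XLOC_005357 (791 bp) had 2 and 14. The remaining 7 kept more YK reads. XLOC_020967 (2320 bp) had 36 YK reads and 93 SH reads, XLOC_016855 (1394 bp) had 9 and 69, and XLOC_008185 (1112 bp) had 22 and 52. XLOC_020690 (2495 bp) had 13 YK reads and 44 SH reads, and XLOC_009420 (928 bp) had 13 and 40. XLOC_007810 (784 bp) had 11 YK reads and 34 SH reads, and XLOC_011091 (435 bp) had 7 and 28.

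Of the 10 loci with the most reads 5 were called, XLOC_003052, XLOC_017573 and XLOC_024729 among them, and the other 5 were not. XLOC_014720 (623 bp, scaffold 2) had the most, 476 reads in YK and 532 in SH, and its log2 ratio of -0.16 had an interval of -0.34 to 0.02 that leaves no room for a 2-fold difference from counting error. It also had the most reads per length, 1618 per kb. XLOC_008045 (564 bp, scaffold 13) had 190 reads in YK and 207 in SH, for a log2 ratio of -0.12 (-0.41 to 0.17), and 704 reads per kb. XLOC_005771 (546 bp, scaffold 12) had 117 reads in YK and 112 in SH, for a log2 ratio of 0.06 (-0.32 to 0.45). At these 3 short loci the libraries differed by less than the counting error.

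A further 8 loci had an adjusted p under 0.05 by the exact binomial test but stood less than 2-fold apart. In 6 of them SH had more reads. XLOC_011078 (1414 bp) had 208 YK reads and 351 SH reads, a log2 ratio of -0.75 (-1.01 to -0.50; adjusted p = 8.15e-08), and XLOC_014725 (672 bp) had 118 and 217, a log2 ratio of -0.88 (-1.21 to -0.55; adjusted p = 2.85e-06). XLOC_003050 (861 bp) had 70 YK reads and 137 SH reads, and XLOC_015202 (1226 bp) had 68 and 124. XLOC_005703 (1527 bp) had 46 YK reads and 85 SH reads, and XLOC_023897 (1800 bp) had 87 and 133. In the other 2 YK had more reads. XLOC_026389 (932 bp) had 115 YK reads and 71 SH reads, and XLOC_002617 (3425 bp) had 84 and 48.

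The other loci that were not called lay on both sides of even. XLOC_020727 (545 bp) had 101 YK reads and 115 SH reads, XLOC_024188 (1096 bp) had 71 and 107, and XLOC_005312 (1565 bp) had 66 and 75. XLOC_010727 (3206 bp) had 57 YK reads and 79 SH reads and stands 546990 bp from its nearest annotated gene with reads, farther than any other locus. XLOC_022110 (1393 bp) had 61 YK reads and 62 SH reads, and XLOC_012657 (1318 bp) had 53 and 57. The only locus with equal numbers was XLOC_003048 (452 bp), with 16 reads in YK and 16 in SH. XLOC_008042 (741 bp) had 44 YK reads and 75 SH reads, XLOC_021417 (1504 bp) had 40 and 47, and XLOC_002032 (684 bp) had 29 and 52. XLOC_020729 (669 bp) had 46 YK reads and 30 SH reads, XLOC_004721 (660 bp) had 45 and 28, and XLOC_023851 (608 bp) had 41 and 24. The last 3 lean to YK, with adjusted p values of 0.358, 0.294 and 0.248 by the exact binomial test.

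Some of the loci with fewer reads stood at least 2-fold apart without passing the test, and at this depth a difference of that size was not detectable there. XLOC_005373 (865 bp) had 24 YK reads and 8 SH reads, a log2 ratio of 1.53 (0.38 to 2.95; adjusted p = 0.0662, exact binomial test). XLOC_007702 (410 bp) had 5 YK reads and 19 SH reads, a log2 ratio of -1.83 (-3.70 to -0.46; adjusted p = 0.0629). XLOC_017576 (958 bp) had 11 YK reads and 2 SH reads, a log2 ratio of 2.20 (0.26 to 5.67; adjusted p = 0.151). This locus is 12235 bp from the gene whose best A. thaliana hit is the blue-light receptor PHOT1, which had 41 reads in YK and 29 in SH. The 2 longest loci also had few reads: XLOC_026259 (5040 bp) had 16 YK reads and 15 SH reads, and XLOC_023076 (4981 bp) had 14 and 12. Per length they had 6.15 and 5.22 reads per kb.

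A further 51 loci that were not called had 14 to 71 reads each. Of these, 21 had more reads in YK, and 5 of the 21 stood at least 2-fold apart without passing the test. XLOC_010429 (474 bp) had 13 YK reads and 3 SH reads, XLOC_022731 (515 bp) had 19 and 8, and XLOC_016854 (788 bp) had 23 and 10. XLOC_013566 (3222 bp) had 20 YK reads and 9 SH reads, and XLOC_024728 (472 bp) had 11 and 5. Next to XLOC_016854, at 919 bp, Thhalv10028533m.g was called higher in YK with 18 reads in YK and 3 in SH, so locus and gene leaned the same way. A weaker lean was found at XLOC_013567 (2193 bp) with 22 YK reads and 12 SH reads, XLOC_010426 (760 bp) with 14 and 7, XLOC_015176 (861 bp) with 18 and 10, and XLOC_026219 (1872 bp) with 17 and 10. XLOC_017578 (914 bp) had 24 YK reads and 15 SH reads, 6327 bp from a gene whose best A. thaliana hit is the cytochrome P450 CYP89A6 and which had 8 and 13. XLOC_018193 (647 bp) had 32 YK reads and 21 SH reads, and XLOC_010078 (3925 bp) had 20 and 14. These leans are within the counting error of the reads. XLOC_009421 (422 bp) had 36 YK reads and 26 SH reads, and its nearest gene, with a best hit to LCR58 of the defensin-like family of A. thaliana, had 0 and 1. XLOC_005353 (484 bp) had 10 YK reads and 7 SH reads, XLOC_015737 (924 bp) had 15 and 12, and XLOC_009203 (1753 bp) had 10 and 8. The smallest leans to YK were those of XLOC_017574 (673 bp) with 10 YK reads and 9 SH reads, XLOC_004070 (1010 bp) with 22 and 20, XLOC_006967 (2153 bp) with 27 and 25, XLOC_026390 (1252 bp) with 18 and 17, and XLOC_016852 (1202 bp) with 24 and 23.

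The other 30 of these loci had more reads in SH, and 11 of the 30 stood at least 2-fold apart without passing the test. XLOC_004720 (901 bp) had 3 YK reads and 12 SH reads, and XLOC_005355 (556 bp) and XLOC_020725 (1353 bp) had 4 and 15 each. XLOC_006577 (1324 bp) had 8 YK reads and 22 SH reads, 172 bp from Thhalv10021140m.g with 8 and 10. XLOC_000777 (1980 bp) had 9 YK reads and 24 SH reads, 2933 bp from Thhalv10025809m.g with 103 and 106. In both cases the gene was nearer to even than the locus, and no difference was called between them. XLOC_004427 (1234 bp) had 5 YK reads and 13 SH reads, XLOC_010694 (626 bp) had 4 and 10, and XLOC_017211 (3131 bp) had 9 and 20. The gene nearest to XLOC_017211, at 4676 bp, has as best A. thaliana hit the histone deacetylase HDA9 and had 3 reads in YK and 8 in SH. XLOC_004725 (428 bp) had 11 YK reads and 24 SH reads, XLOC_005767 (466 bp) had 12 and 25, and XLOC_023711 (1627 bp) had 19 and 39. The remaining 19 stood less than 2-fold apart. XLOC_023642 (1001 bp) had 11 YK reads and 21 SH reads, XLOC_008742 (509 bp) had 18 and 33, XLOC_001462 (1116 bp) had 11 and 20, and XLOC_009685 (2344 bp) had 6 and 11. XLOC_005348 (1811 bp) had 26 YK reads and 45 SH reads, XLOC_018083 (936 bp) had 8 and 13, XLOC_001953 (1944 bp) had 21 and 33, and XLOC_005356 (588 bp) had 7 and 11. Of these 8, XLOC_009685 and XLOC_008742 have an annotated neighbour that was called higher in SH, 147 and 51108 bp away. XLOC_023787 (1725 bp) had 7 YK reads and 10 SH reads, XLOC_010695 (992 bp) had 10 and 14, XLOC_020730 (573 bp) had 13 and 18, and XLOC_023850 (480 bp) had 14 and 19. XLOC_020728 (533 bp) had 11 YK reads and 14 SH reads, XLOC_014722 (1159 bp) had 8 and 10, XLOC_015022 (2311 bp) had 18 and 22, and XLOC_019332 (1920 bp) had 21 and 25. The last 3 were within a single read of even: XLOC_016857 (558 bp) with 9 YK reads and 10 SH reads, XLOC_021005 (1433 bp) with 14 and 15, and XLOC_003047 (967 bp) with 30 and 31.

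The loci were short. Their median length was 932 bp (316 to 5040), against 2280 bp for annotated genes with at least 10 reads, with introns included in both. Under 1000 bp were 88 loci (56.8%, against 7.76% of these annotated genes), and over 3000 bp were 9. The reads of both libraries per kb had a median of 39.1 at the loci (3.06 to 1618) and 13.2 at the annotated genes. The ends of the loci were drawn by the assembly from the reads counted here, and the floors on reads differ. Both bear on this difference in read density, and how far was not tested. Short annotated genes were also called more often than long ones, so calls are compared within classes of length. Annotated genes with at least 10 reads in a library are taken here, to match the floor of the loci. From 300 to 599 bp 32.1% of the loci were called (15.9 to 52.4%), against 18.5% of these annotated genes (12.4 to 26.1%), so the intervals overlap. From 600 to 999 bp the shares were 53.3% of the loci and 16.9% of the genes, from 1000 to 1999 bp 40.8% and 8.54%, and from 2000 to 5040 bp 38.9% and 6.15%. The median log2 ratios of the loci in these classes, in the same order, were -0.54, -0.73, -0.78 and -0.37, against -0.11, -0.26, -0.14 and 0.13 for these annotated genes. SH thus led at the loci in every class of length.

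The numbers in the IDs follow the scaffolds. Along scaffold 1 the ID numbers of its 18 loci went up with the position in 3 passes, as did those of the 14 loci of scaffold 5 and the 13 of scaffold 13, and no scaffold took more passes. Loci with another XLOC number at most 3 away on the same scaffold are here said to have neighbouring IDs. The 91 loci with neighbouring IDs had a median length of 788 bp, and 3 were over 1500 bp. The 64 with isolated IDs had a median length of 1468.5 bp, and 32 were over 1500 bp. Reads hardly set the classes apart, with medians of 33 and 33.5, but reads per kb had medians of 42.7 and 31.9. Of the loci with neighbouring IDs 43 were called (47.3%; 12 higher in YK and 31 higher in SH), and of those with isolated IDs 25 (39.1%; 6 and 19). What the numbers stand for is not given in the sources used here.

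**Figure D4:**
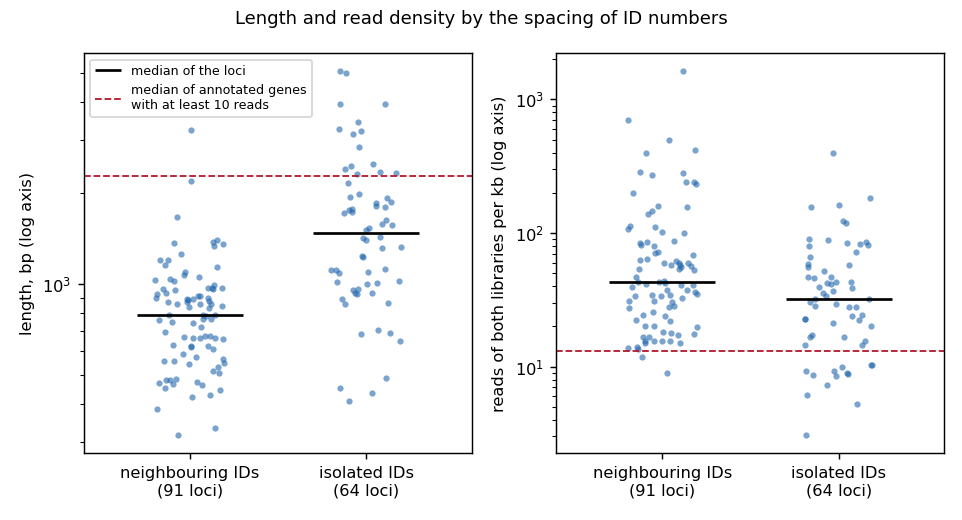
Length in bp (left, log axis) and reads of both libraries per kb (right, log axis) of each XLOC locus, for 91 loci with neighbouring ID numbers and 64 with isolated ones; points are loci, black lines their medians, and the dashed line is the median of annotated genes with at least 10 reads. The medians of the loci are 788 and 1468.5 bp, both below the 2280 bp of the annotated genes, and 42.7 and 31.9 reads per kb, both above the 13.2 of the annotated genes.

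By the median, the loci sat farther from annotated genes than those genes did from each other. None overlapped one, which follows from how the loci were defined. The median gap to the nearest annotated gene with any read was 1845 bp (98 to 546990), against 575 bp between an annotated gene with at least 10 reads and its own neighbour. Genes without a read are not in the table, so the true gaps can be smaller. Within 500 bp were 36 loci, over 500 and up to 10000 bp 83, and beyond 10000 bp 36, of which 8 were beyond 50000 bp. Of the loci within 500 bp 14 were called (38.9%; 2 higher in YK and 12 higher in SH). Over 500 and up to 10000 bp 42 were called (50.6%; 12 higher in YK and 30 higher in SH), and beyond 10000 bp 12 (33.3%; 4 and 8). Calls were thus spread over all distances.

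The nearest genes had few reads, with a median of 16 (1 to 2595). At 110 loci the nearest gene had fewer reads than the locus, and at 63 it had under 10. To compare a locus with its surroundings, its reads were set against those of the nearest annotated gene with at least 10 reads by a two-sided Fisher's exact test, adjusted over the 10029 rows of the whole table that have such a neighbour. This comparison does not depend on how the libraries are scaled. Of the XLOC loci 55 (35.5%) differed from their neighbour at an adjusted p under 0.05 and at least 2-fold, against 6.00% of all rows tested. The ratio of YK to SH reads was below that of the neighbour at 43 loci (27.7%, against 3.14%) and above it at 12 (7.74%, against 2.86%). Of the 68 loci called between the libraries 50 also differed from the neighbour in the same direction. Both tests use the same reads of the locus, so this overlap is not separate support. The 6.00% covers rows with at least 10 reads in total, and a share matched to the floor of the loci was not computed. Loci with reads in a single library met that floor through this library alone, which bears on their difference from a neighbour near even.

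The neighbours themselves were close to even, with a median log2 ratio of -0.09. Of the loci, 15 had a neighbour that was called (9.68%, against 6.62% of all genes tested). Of these 15 loci 7 were called too, a share near the 43.9% of all loci, and 4 of them in the direction of the neighbour. Across loci the log2 ratios of locus and neighbour had a Pearson correlation of -0.09 and a Spearman correlation of -0.11. Across 9872 annotated genes and their neighbours these were 0.05 and 0.02. Loci are not independent replicates, 146 different genes serve as neighbours, and all values come from the same 2 libraries. In the plot of loci against neighbours the points spread along the vertical axis and not along the diagonal.

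**Figure D5:**
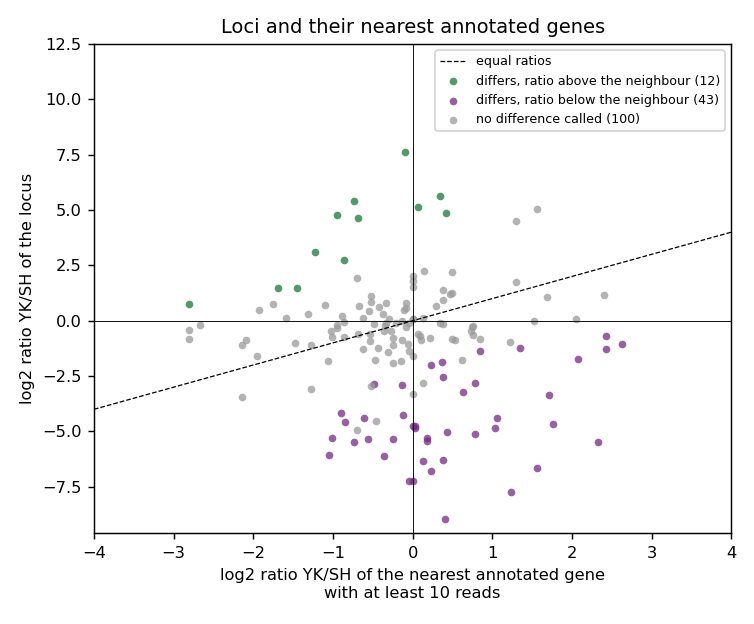
The log2 ratio of YK over SH reads of each XLOC locus (vertical axis) against that of the nearest annotated gene with at least 10 reads (horizontal axis), with 0.5 reads added; the dashed line marks equal ratios. The 12 loci with a ratio above the neighbour's are green, the 43 with a ratio below it are purple, and the other 100 are grey; the neighbours lie around 0 while the loci reach from -8.95 to 7.64.

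The test against the neighbour was also read for loci with a small gap. Within 500 bp of a neighbour with at least 10 reads 6 loci differed from it, XLOC_005768 and XLOC_003051 among them. All but XLOC_021725 had reads in a single library. The others met the floor of 10 reads through this library alone, so their difference from a neighbour near even is not separate support for their calls. XLOC_021725 had 40 YK reads and 145 SH reads, while Thhalv10004635m.g at 172 bp had 17 and 13 (adjusted p = 0.00669, Fisher's exact test). XLOC_003053 had 0 YK reads and 19 SH reads, while Thhalv10025823m.g at 213 bp had 17 and 15 (adjusted p = 0.00195). XLOC_004724 had 0 YK reads and 13 SH reads, while Thhalv10017243m.g at 167 bp had 17 and 17 (adjusted p = 0.0295). In each of these 3 the neighbour was near to even. XLOC_011432 had 0 YK reads and 22 SH reads, while Thhalv10006361m.g at 197 bp had 7 and 12 (adjusted p = 0.0396).

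At other loci close to a gene no difference from it was called, and some of those genes have a known hit. With so few reads a missing call does not show that the ratios are equal. Some of these loci leaned the other way from the gene. XLOC_021417 had 40 YK reads and 47 SH reads, 297 bp from Thhalv10005724m.g with 46 and 27. Others leaned the same way by reads. XLOC_017572 (1034 bp) had 12 YK reads and 20 SH reads, 235 bp from Thhalv10002656m.g, whose best A. thaliana hit VPS2.1 belongs to the ESCRT machinery of endosomal sorting and which had 26 reads in YK and 53 in SH. XLOC_012657, with 53 YK reads and 57 SH reads, is 115 bp from Thhalv10013309m.g with 11 and 14. XLOC_003990 (1574 bp) had 35 YK reads and 38 SH reads, 299 bp from Thhalv10017379m.g with 63 and 65. XLOC_012657 and XLOC_003990 are close to even, and their direction depends on scaling. Scaled to library totals XLOC_012657 had 122.8 RPM in YK and 118.2 in SH, and XLOC_003990 had 81.1 and 78.8. No difference was called between these loci and their neighbours. XLOC_010427 (663 bp) had 15 YK reads and 33 SH reads and is 475 bp from Thhalv10011087m.g, a gene with 327 reads in YK and 1445 in SH. That gene was called higher in SH, and the locus leans the same way without being called. In the paper's quantitative PCR the gene did not differ significantly between the accessions.

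A few loci differed from the neighbour without being called between the libraries, 5 in all. XLOC_003046 (625 bp) had 12 YK reads and 25 SH reads, and its neighbour Thhalv10024979m.g at 6878 bp leaned the other way with 15 and 2. The gene nearest to this locus, at 1739 bp, has as best A. thaliana hit CYP81F4, a cytochrome P450 of indole glucosinolate modification, and had 5 reads in YK and 0 in SH. XLOC_023849 (833 bp) had 23 YK reads and 8 SH reads, against 11 and 31 at Thhalv10011843m.g, 45246 bp away. The other 3 are XLOC_014723 with 22 YK reads and 36 SH reads, XLOC_014724 with 12 and 30, and XLOC_023851 with 41 and 24. In these 5 it is the contrast with the neighbour that passed the test, not the locus alone.

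Loci also lay near each other, with 11 pairs of successive loci at most 50000 bp apart. In 2 pairs both were called in the same direction, in 1 pair in opposite directions, in 5 pairs a single locus was called, and in 3 pairs none. The pair with opposite calls, singled out after its values had been seen and not tested further, is on scaffold 13 with a gap of 338 bp and no annotated gene with reads in between. There XLOC_007809 had 34 reads in YK and 8 in SH, for a log2 ratio of 2.02 (0.95 to 3.41), and XLOC_007810 had 11 and 34, a log2 ratio of -1.58 (-2.76 to -0.61). Their intervals do not overlap. On scaffold 12 XLOC_005769 and XLOC_005770, 35177 bp apart, had reads in SH alone, 14 and 13. On scaffold 18 XLOC_010741 with 11 YK reads and 0 SH reads and XLOC_010711 with 35 and 10 were both higher in YK, 32660 bp apart.

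The loci were spread over 23 scaffolds. Scaffold 1 held 18 of them, with 387 reads in YK and 861 in SH, and 3 were called higher in YK and 6 higher in SH. Scaffold 5 held 14 and scaffold 13 held 13, where calls were even at 4 higher in YK and 4 higher in SH. On scaffold 2 none of 8 loci was called, although they held 731 reads in YK and 903 in SH. On scaffold 6, 5 of the 9 loci were called, each higher in SH, and on scaffold 14, 3 of the 4 loci. Among all loci 43.9% were called, 18 loci higher in YK and 50 higher in SH. The counts of scaffolds 6 and 14 are too small to set either apart from that share. Scaffold 18 held 3 loci beside only 23 annotated genes, and scaffold 12 held 8 beside 217, whereas scaffold 2 had 8 beside 2325. Differences between scaffolds were not tested.

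Best A. thaliana hits were read for the loci only from the part of the gene annotation used here, which lists 13 of them, 3 with a hit and 10 with an empty field. All 13 have reads in a single library, so nothing can be read from the reads of the 3 with a hit. The hits are the dynamin-like protein of XLOC_005642, AT5G26270 of XLOC_020726 and the transposable element gene of XLOC_025497. The hits of the other loci were not analysed here.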

How the data were processed

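Counts were deposited by the authors as raw reads per gene for 1 library of each accession, not normalized, with scaffold positions. The table also holds fold changes and p-values (raw and adjusted) made by the authors, which were not used, and 1 blank row, which was left out. No column of per-sample values was left out. According to the methods and the submitters' processing notes, pyrosequencing reads were filtered by the authors (quality 12, length 50), aligned to the genome of the SH accession (the notes name GSNAP), assembled separately for SH and YK with Cufflinks and merged. Loci outside the JGI annotation were found with bedtools 2.17.0, reads counted without strand with HTSeq 0.5.4p5, and tested with DESeq 1.14.0. Reads of both accessions were thus aligned to the SH genome, and the part of this in the YK counts was not tested. Reads of a locus and of an antisense partner cannot be told apart, and reads without molecular identifiers are not independent molecules, so intervals and floors cover counting error only.

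From the counts, size factors by the median of ratios were 1 and 1. Each gene with at least 10 reads was tested between the libraries by an exact, two-sided binomial test, and each locus against its nearest annotated gene with at least 10 reads by Fisher's exact test, both with Benjamini-Hochberg adjustment over the whole table (SciPy 1.17.1, pandas 2.3.3). Both procedures were tested on simulated data. Intervals are 95% Clopper-Pearson intervals of the YK share turned into a ratio. Distances are gaps between ends. Other scalings, minimum reads, fold rules and neighbours were tried, as were edgeR 4.0.16 (R 4.3.3) with an assumed spread and a rewritten DESeq scheme. The working rule names every locus, and full statistics go to those with primers, a best hit, the most reads or the intervals farthest from 0, and to those within 500 bp of a gene they differ from. Members and lists were chosen with earlier results of these data known. Best A. thaliana hits come from the part of the authors' gene annotation used here, 1998 rows. None of the gene IDs was looked up elsewhere, and coordinates are those of the deposited table. Of the XLOC rows 2 are not reported here.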

Additional observations from a re-analysis of the deposited data

How the results depend on the processing

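All 68 calls were kept under scaling by total reads, by edgeR's TMM and by total reads without the most abundant genes, which gave 70, 70 and 69 calls. Scaling by total reads shifts every log2 ratio by 0.16, and the median log2 ratio of the loci was then -0.55, while it was -0.66 without the most abundant genes. Over the whole table that scaling turned the split to 438 genes higher in YK and 310 higher in SH, and at the loci it stayed at 20 and 50. With a minimum of 20 reads, 11 loci were called higher in YK and 36 higher in SH, as only 117 loci were tested. With edgeR's exact test at an assumed coefficient of variation of 0.2, 45 loci were called, 9 higher in YK, against 1.99% of all genes. At 0.4 there were 12, with 1 higher in YK and 11 higher in SH, against 0.359% of all genes, and the rewritten DESeq scheme at a false discovery rate of 0.2 gave 13, with 1 higher in YK and 12 higher in SH, against 0.201% of all genes. XLOC_005768 was the locus called higher in YK in both. Set against the nearest gene with any read 32 loci differed, against 3.12% of all rows, and set against a gene within 5 kb 29 of 76 differed, against 5.56%. Other minimum reads and fold rules, and the choices of at least 10 reads in at least 1 library and of loci over 1 kb from a gene, which were added after the data were seen, gave 47 to 76 calls. No direction was reversed. No paired analysis was possible because each accession has 1 library, and no library could be left out for the same reason. With a median of 33 reads a locus, differences near 2-fold were mostly beyond the depth.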
